A study of Mus musculus with 21 samples.

Results

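The 7 genes described here encode the MHC class II presentation machinery: H2-Aa, H2-Ab1, H2-Eb1, H2-DMa, H2-DMb1, Cd74 and Ciita. They were picked by gene symbol from a table of 45706 genes, and all 7 are in it. MHC class II molecules display peptides from endocytosed proteins to CD4+ T cells. Each molecule is an alpha and a beta chain that assemble on the invariant chain in the endoplasmic reticulum, and in endosomes the remnant of that chain is exchanged for a peptide with the help of the DM heterodimer. Dendritic cells, macrophages and B cells express these genes constitutively, whereas most other cells, endothelium included, do so mainly under interferon-gamma, through the transactivator CIITA.

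The RNA came from tumours of E0771.lmb, a mammary carcinoma line of the mouse, grown in adult mice of 2 genotypes; CD31-positive cells were sorted from each tumour and their total RNA was sequenced. KO mice carried floxed Shb and the Cdh5-CreERt2 transgene, in which the endothelial Cdh5 promoter drives a tamoxifen-activated Cre, so Shb, a signalling adaptor, is deleted in endothelial cells. WT mice were wild type, and tumours of both were grown after tamoxifen and taken between day 14 and day 16, per the labels' protocols. The 10 KO libraries came from 8 tumours and the 11 WT libraries from 9 tumours, in 4 experiments, and the labels do not say which libraries share a tumour, so the spread between libraries is in part technical. Experiment 1 held 2 KO and 3 WT libraries, experiment 2 held 4 and 3, experiment 3 held 2 and 2, and experiment 4 held 2 and 3. The protocol text also names a magnetic step with CD45, a leukocyte surface protein, before the CD31 sort, and a blood-cell Vav1-cre line to which no library is assigned by its labels. Which cells were kept at the CD45 step is not stated, and the levels of Ptprc, Lyz2 and other leukocyte transcripts below depend on it.

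Values are TPM (reads per gene length, scaled to a fixed sum per library), which keep no record of depth, so the reads behind a value are unknown. Between 12178 and 20526 genes per library were above 0. Shb, the deleted gene, lay between 6.00 and 52.7 TPM in KO libraries (median 13.7) and between 17.3 and 74.3 TPM in WT libraries (median 31.8). Pecam1, which encodes CD31, averaged 1263 ± 476 TPM in the 10 KO libraries (SD), against 1132 ± 525 TPM in the 11 WT libraries. It was under 500 TPM in 3 libraries: KO replicate 2 of experiment 4, WT replicate 2 of experiment 4 and WT replicate 1 of experiment 2. WT replicate 2 of experiment 3 stands apart for the class II genes. It had the highest level of every one of the 7, and also of Ptprc (CD45, on all nucleated blood cells) and Lyz2 (lysozyme of macrophages, monocytes and granulocytes). Where computed, results are also given without it. In experiment 2 a pair of columns shares the header of KO replicate 3; they are called 3a and 3b.

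Of the 7 genes, 5 lie on chromosome 17 of GRCm38 within 197 kb, between bases 34119541 and 34316674. Ciita lies on chromosome 16 between bases 10480059 and 10528418. Class II promoters are known for an X box, bound by RFX, and a Y box, bound by NF-Y, on which CIITA docks. Promoter windows from RefSeq (GRCm38.p6) were used for 4 of the 7 genes, each with 250 bases before and 50 after the gene start. These were H2-Aa, H2-Eb1, H2-DMb1 and H2-DMa. Cd74 was left out by choice, and no window of H2-Ab1 or Ciita was searched. The 120 bases before the start are shown for the 3 searched genes with both an X core and a Y box. The X core pattern was written after the windows had been read, and the 3 genes were picked for holding it. Its presence in all 3 is therefore no test. The windows are chr17:34287824-34287943 (minus strand) for H2-Aa, chr17:34305747-34305866 (plus strand) for H2-Eb1 and chr17:34153071-34153190 (plus strand) for H2-DMb1. Each is written 5′ to 3′ on the gene's strand, and capitals mark the motif matches.
H2-Aa: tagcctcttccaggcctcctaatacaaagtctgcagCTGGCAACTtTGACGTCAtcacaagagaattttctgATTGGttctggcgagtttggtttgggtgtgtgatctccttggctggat
H2-Eb1: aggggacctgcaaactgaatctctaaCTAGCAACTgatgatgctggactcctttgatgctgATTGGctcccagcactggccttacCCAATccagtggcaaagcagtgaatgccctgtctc
H2-DMb1: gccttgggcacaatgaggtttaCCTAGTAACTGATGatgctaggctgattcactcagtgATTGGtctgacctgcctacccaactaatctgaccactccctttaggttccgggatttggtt

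All 3 stretches hold the X core CTNGNAACT followed by the Y box, whose letters CCAAT read ATTGG on the opposite strand. The X core begins 84 bases before the start in H2-Aa, 94 in H2-Eb1 and 97 in H2-DMb1. The Y box begins 36 bases further on in H2-Aa, 35 in H2-Eb1 and 36 in H2-DMb1. In H2-Aa the core TGACG of the X2 box, a CREB site, follows the X core on both strands with an overlap, and H2-Eb1 has another CCAAT nearer the start. The longer consensus of the X1 box matched in H2-DMb1 alone, where it overlaps the X core. Both strands were searched, and of 32851 promoter windows 4.1% hold CTNGNAACT, 37.4% CCAAT, 20.8% TGACG and 1.25% the X1 consensus. CTNGNAACT was added after the windows had been read. The GENCODE model of H2-DMb1 begins at base 34153072, inside the stretch shown, so its start differs between the annotations. For H2-DMa both windows used lack an X core, and a match here is a description of letters, not of binding.

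**Figure D1:**
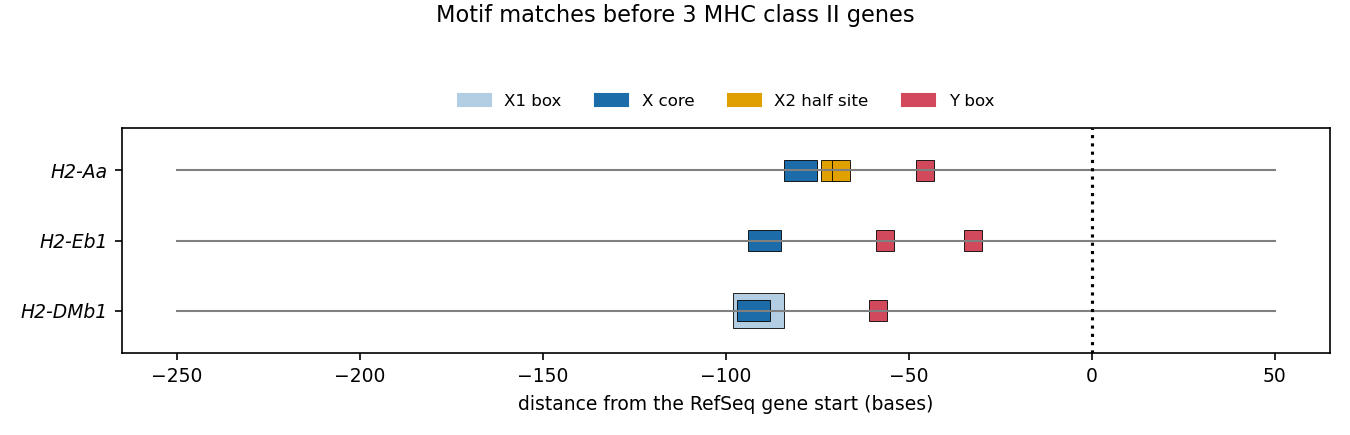
Motif matches before H2-Aa, H2-Eb1 and H2-DMb1, placed by distance from the RefSeq gene start in bases (dotted line at 0). The X core and the first Y box lie 35 or 36 bases apart in all 3 genes, and the X2 matches, are found in H2-Aa.

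The peptide-binding chains were all present in every library. H2-Aa, the alpha chain of the I-A molecule, ran from 5.44 to 46.5 TPM in KO libraries (median 15.9) and from 11.4 to 699 TPM in WT libraries (median 61.3). All 10 KO libraries were below the WT median, 8 of 11 WT libraries were above every KO library, and the groups overlapped through the lowest WT libraries. Mean H2-Aa was 20.9 ± 13.2 TPM in the 10 KO libraries (SD), against 121 ± 195 TPM in the 11 WT libraries, or 62.9 ± 39.2 TPM in the 10 WT libraries other than replicate 2 of experiment 3. H2-Ab1, the I-A beta chain, ran from 16.7 to 83.7 TPM in KO libraries (median 36.0) and from 22.7 to 941 TPM in WT libraries (median 83.0). Here the overlap was wider: 2 KO libraries were below every WT library and 5 WT libraries above every KO library. H2-Eb1, the beta chain of I-E, ran from 3.00 to 44.4 TPM in KO libraries (median 12.9) and from 8.39 to 600 TPM in WT libraries (median 61.5). For H2-Eb1 4 KO libraries were below every WT library and 7 WT libraries above every KO library. Its usual partner, the I-E alpha chain, appears in the table as H2-Ea-ps, annotated as a polymorphic pseudogene, and this row is listed at 0 in all 21 libraries.

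Cd74, the invariant chain that escorts new class II molecules to endosomes (chromosome 18, bases 60803848 to 60812652), was the most abundant of the 7. Cd74 ran from 35.3 to 205 TPM in KO libraries (median 58.6) and from 34.4 to 2002 TPM in WT libraries (median 195). The lowest library of all was a WT one, replicate 3 of experiment 2, while 5 WT libraries lay above every KO library. Every library of either genotype thus held Cd74, the lowest at 34.4 TPM.

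H2-DMa and H2-DMb1 encode the DM heterodimer that edits the bound peptide. H2-DMa ran from 3.13 to 13.1 TPM in KO libraries (median 9.48) and from 2.00 to 134 TPM in WT libraries (median 14.9). No KO library was below the lowest WT library, yet 8 WT libraries were above every KO library. H2-DMb1 ran from 0 to 22.0 TPM in KO libraries (median 5.01) and from 6.33 to 113 TPM in WT libraries (median 19.4). It was listed at 0 in 3 KO libraries, all of experiment 2 (replicates 2, 3a and 3b), and at 7.91 TPM in the other KO library of that experiment. In the same 3 libraries its partner H2-DMa stood at 8.68, 7.21 and 13.1 TPM, so its partner was well above 0 where H2-DMb1 was listed at 0. The H2-DMb1 transcript is 93.9% identical over 1255 aligned bases to that of its neighbour H2-DMb2, so reads of the pair may have been split and the H2-DMb1 level is uncertain; H2-DMb2 was listed at 0 in these 3 libraries and reached 16.0 TPM in WT replicate 2 of experiment 3.

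Ciita, the transactivator, was the lowest of the 7. Ciita ran from 0 to 8.17 TPM in KO libraries (median 2.97) and from 2.42 to 15.8 TPM in WT libraries (median 5.23). The 0 was KO replicate 3b of experiment 2, 3 KO libraries were below every WT library and 2 WT libraries were above every KO library. That library carried 24.9 TPM of H2-Ab1 and 50.8 TPM of Cd74.

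**Figure D2:**
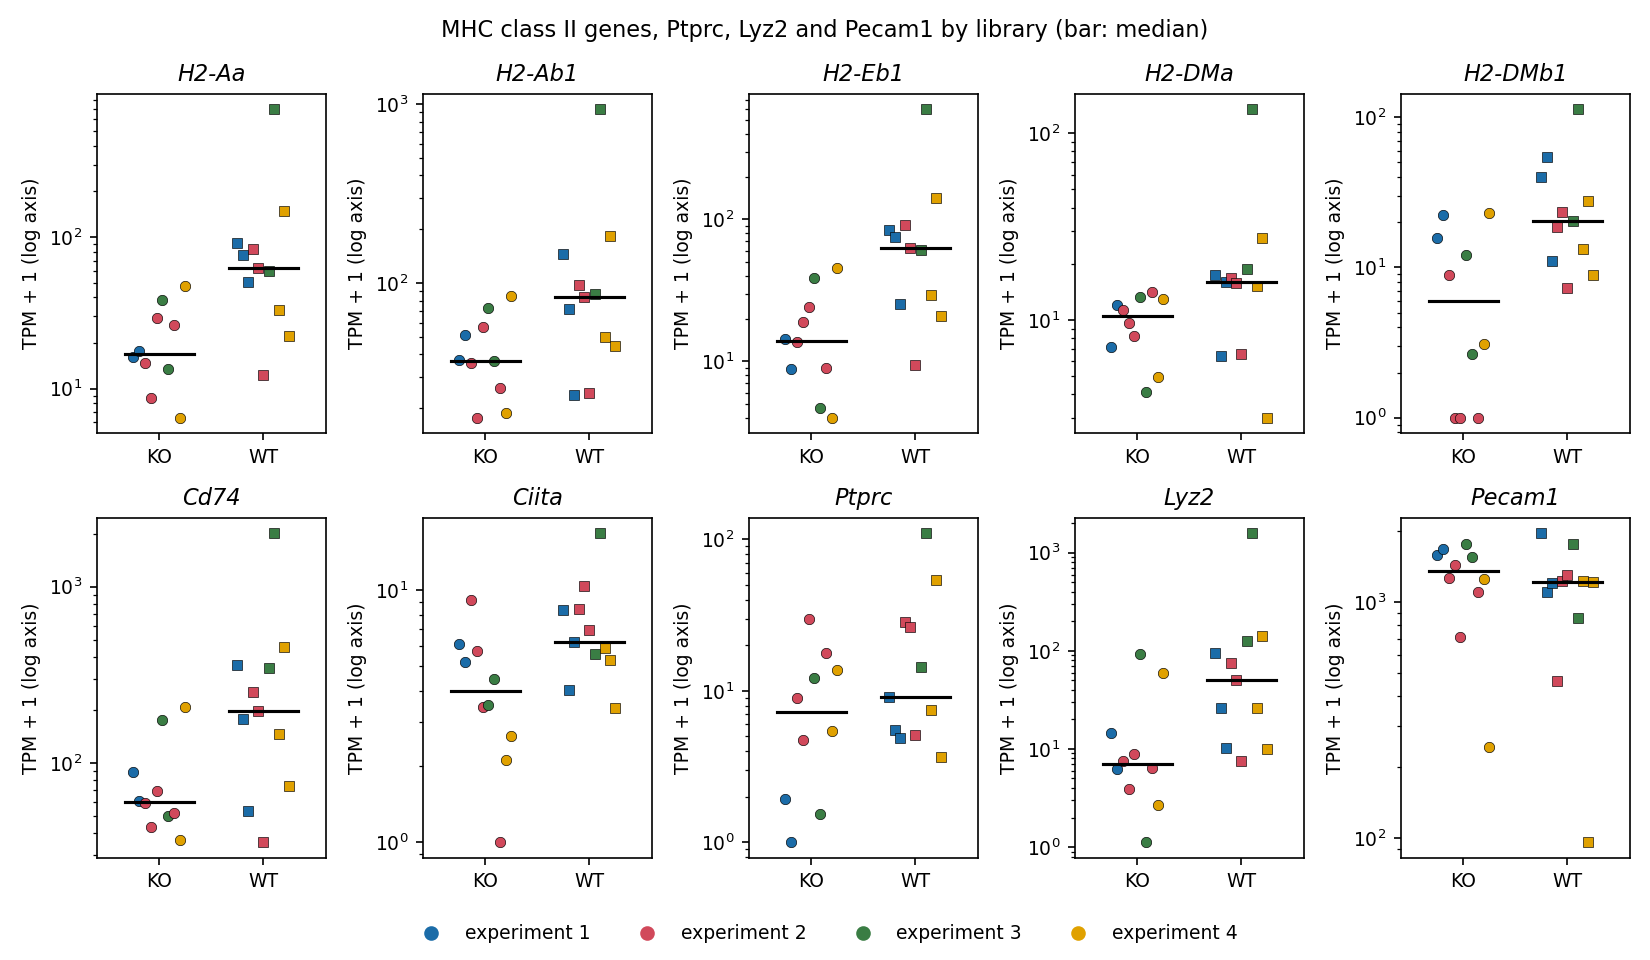
TPM + 1 on a log axis for the 7 class II genes, Ptprc, Lyz2 and Pecam1, with KO libraries (circles, n = 10) left of WT libraries (squares, n = 11), coloured by experiment; the bar is the median. The KO and WT points overlap for every gene, and WT replicate 2 of experiment 3 is the top point for all of them but Pecam1.

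TPM is scaled by gene length, so levels can be ordered between genes. Mean TPM over the 21 libraries fell in the order Cd74, H2-Ab1, H2-Aa, H2-Eb1, H2-DMb1, H2-DMa and Ciita. Cd74 exceeded H2-Ab1 in 21 of 21 libraries, by 1.06 ± 0.43 on the log2(TPM + 1) scale (SD, n = 21), as used for all differences below. H2-Ab1 exceeded H2-Aa in 18 of 21 libraries, by 0.70 ± 0.63. The gap between these partner chains was 1.07 ± 0.46 in the KO libraries (SD, n = 10), against 0.37 ± 0.58 in the WT libraries (SD, n = 11). H2-Aa exceeded H2-Eb1 in 16 of 21 libraries, by 0.30 ± 0.59, which is within the spread. H2-DMb1 minus H2-DMa was -0.15 ± 1.61, also within the spread, and had opposite signs in the genotypes: -0.90 ± 1.83 in the KO libraries, against 0.53 ± 1.05 in the WT libraries. H2-DMa exceeded Ciita by 1.23 ± 1.04, in 18 of 21 libraries.

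The other class II chains were scarce. Of H2-Eb2, H2-Ea-ps, H2-DMb2, H2-Oa and H2-Ob none reached 1 TPM in 10 libraries, the minimum for testing, and their sum was at most 3.59 TPM in KO libraries and at most 18.3 TPM in WT libraries, or 6.53 TPM in WT without replicate 2 of experiment 3. H2-Oa and H2-Ob encode DO, an inhibitor of DM typical of B cells.

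Levels were next compared between the 4 experiments, a contrast that did not enter the choice of the genes. A moderated F test of the experiment term (limma, Benjamini-Hochberg adjusted over 13503 genes) called 29.1% of genes different between experiments and 0 of the 7. Adjusted p-values ran from 0.0811 for H2-DMb1 to 0.622 for H2-Eb1. At an unadjusted p under 0.05 in the same F test only H2-DMb1 (p = 0.0323) was past the threshold. The share of all genes past that unadjusted threshold was not counted, so nothing is read from this. H2-DMb1 averaged 4.60, 2.11, 4.04 and 3.57 on the log2(TPM + 1) scale in experiments 1 to 4, with experiment 2 the lowest. Cd74 averaged 6.82, 6.26, 8.12 and 7.02 in the same order, with experiment 3, which holds the outlying WT library, the highest. The MHC class I list, which most cells express, had 7 of 9 genes called by the same F test, among them B2m (adjusted p = 0.00344) and H2-K1 (adjusted p = 0.0448). A p that misses the threshold does not show that levels were equal, and the SE of the class II genes was wide.

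Library by library, 6 of the 7 class II genes followed Lyz2. Over 21 libraries the Pearson r of log2(TPM + 1) with Lyz2 was 0.96 for Cd74, 0.94 for H2-Eb1, 0.90 for H2-Aa, 0.90 for H2-Ab1, 0.81 for H2-DMa and 0.76 for H2-DMb1. Spearman's rho ran from 0.74 for H2-DMa to 0.93 for Cd74. Permutation p-values (100000 resamples, two-sided, adjusted over 14 relations) were 2.8e-05 for 5 of these r values and 0.00014 for H2-DMb1. Before adjustment those 5 were at 1e-05, the smallest p that the permutations can give. The shuffling treated all 21 libraries as independent, although some share a tumour and they fall into groups by experiment and genotype. The p-values may therefore be too small. Ciita was the exception, with r = 0.47 (permutation adjusted p = 0.0366) and rho = 0.35 (permutation adjusted p = 0.136). Without the 2 libraries farthest from the Lyz2 median, KO replicate 2 and WT replicate 2 of experiment 3, r was 0.97 for Cd74, 0.63 for H2-DMa and 0.31 for Ciita. The relation of Ciita to Lyz2 no longer held without that pair. Leaving out single libraries, it missed the threshold without WT replicate 2 of experiment 3 (r = 0.29), KO replicate 1 of experiment 4 (0.42), WT replicate 1 of experiment 1 (0.45) or WT replicate 1 of experiment 2 (0.45).

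Before the means of experiment and genotype were removed, Ptprc was a looser companion. Its r was 0.75 for H2-Eb1, 0.73 for H2-Aa, 0.72 for H2-DMa, 0.69 for Cd74 and 0.67 for H2-Ab1, each with a permutation adjusted p of 0.000942 or less. For these 5 genes rho lay between 0.64 and 0.68. H2-DMb1 (r = 0.24, rho = 0.32, permutation adjusted p = 0.326 for r) and Ciita (r = 0.21, rho = 0.16, permutation adjusted p = 0.369 for r) did not pass. Without KO replicate 2 of experiment 1 and WT replicate 2 of experiment 3, the libraries farthest from the Ptprc median, r was 0.57 to 0.71 for the 5 genes, 0.14 for H2-DMb1 and 0.00 for Ciita. For H2-DMb1 the pair of columns headed KO replicate 3 of experiment 2 weighs most, since both list it at 0 with Ptprc at 28.7 and 16.8 TPM; without both columns r was 0.52.

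**Figure D3:**
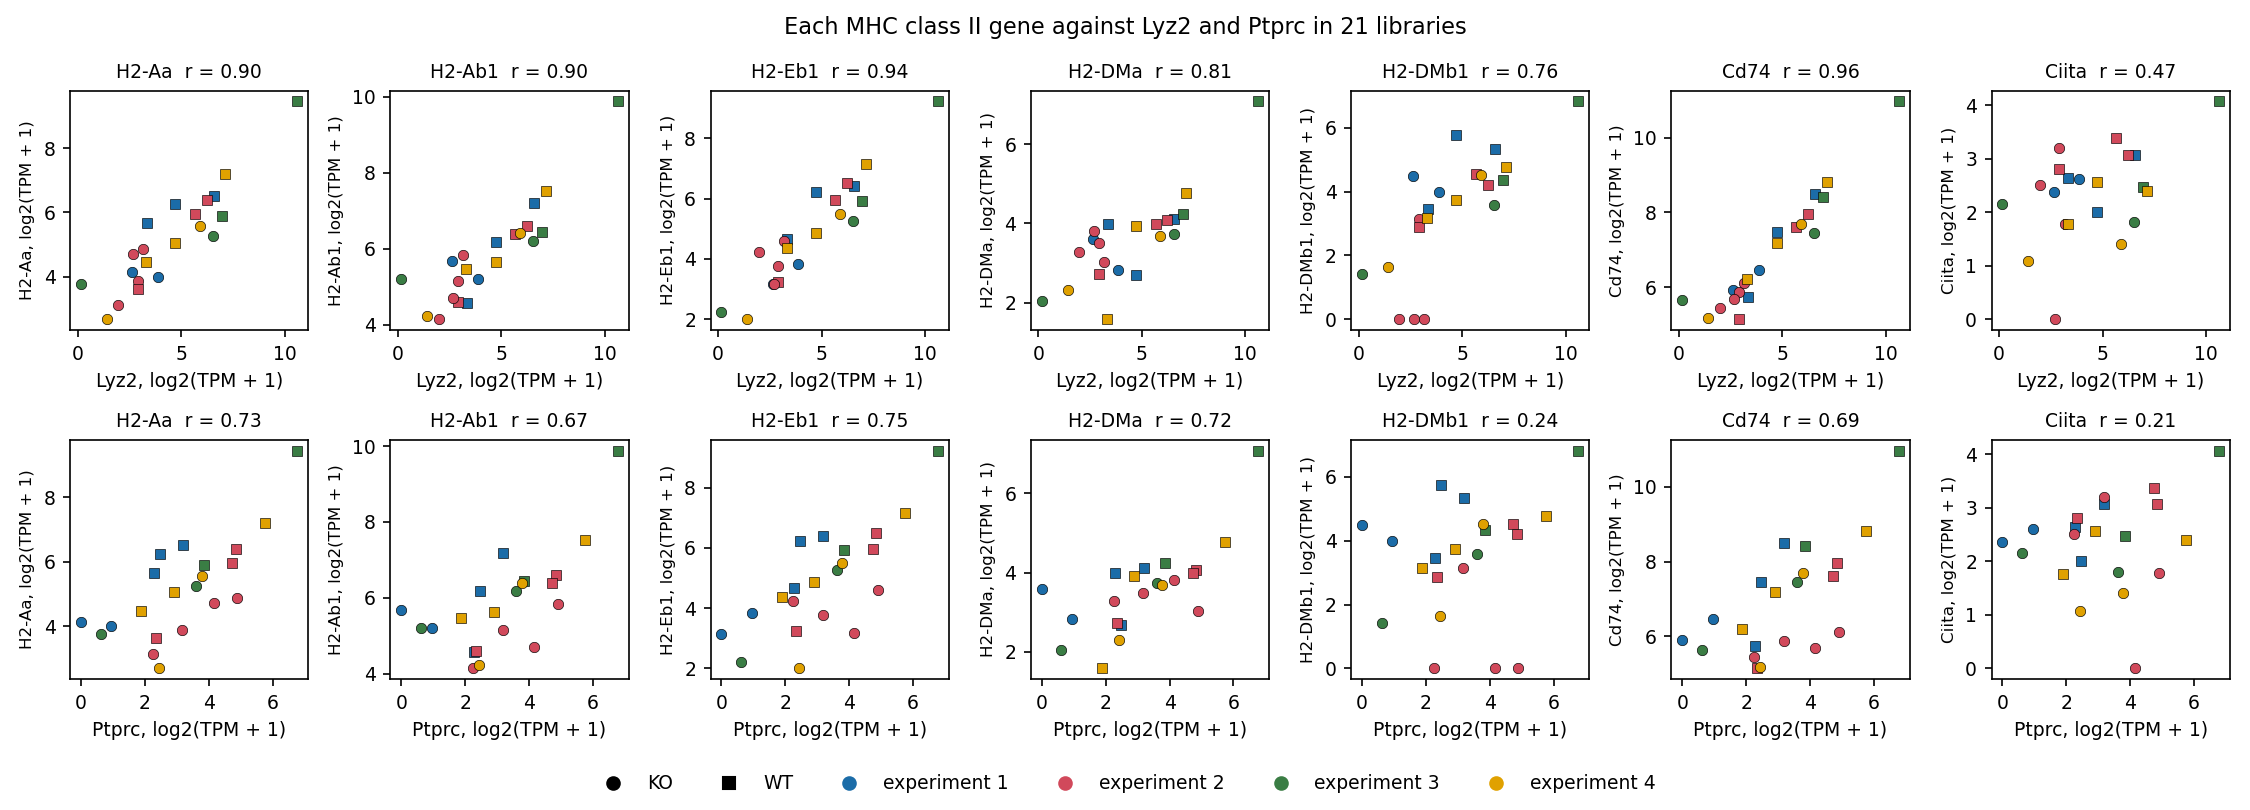
Each class II gene (y axis) against Lyz2 (top row) and Ptprc (bottom row), all as log2(TPM + 1), in 21 libraries; circles are KO, squares WT, colours experiments, and r is Pearson's over all libraries. Cd74 lies along a line with Lyz2 (r = 0.96), while Ciita is scattered against both genes (r = 0.47 and 0.21).

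Most relations remained past the threshold once the means of genotype and experiment were removed. Then r with Lyz2 was 0.93 for Cd74, 0.91 for H2-Eb1, 0.85 for H2-Aa and H2-Ab1, 0.79 for H2-DMa and 0.72 for H2-DMb1, and the permutation adjusted p within experiment and genotype was at most 0.00629. With Ptprc the residual r was 0.91 for H2-Aa, 0.85 for H2-Eb1, 0.84 for Cd74, 0.79 for H2-Ab1 and 0.78 for H2-DMa. It was 0.43 for H2-DMb1 (permutation adjusted p = 0.047), and 12 of the 14 residual relations passed. Those of Ciita did not (0.27 with Lyz2, permutation adjusted p = 0.112, and 0.04 with Ptprc, permutation adjusted p = 0.846). The share of all genes that passes the same tests against Lyz2 or Ptprc, here or above, was not computed. The counts of relations are therefore not shown to be particular to class II. Leaving out WT replicate 2 of experiment 3, an alternative added after the data were seen, gave residual r with Lyz2 of 0.91 for Cd74, 0.66 for H2-DMb1 and 0.11 for Ciita, and with Ptprc of 0.89 for H2-Aa, 0.29 for H2-DMb1 and -0.18 for Ciita. Among KO libraries alone r with Lyz2 was 0.92 for Cd74 and -0.06 for Ciita, against 0.98 for Cd74 and 0.66 for Ciita among WT libraries. With Ptprc the 2 genotypes stood further apart: among KO libraries r was 0.53 for H2-Eb1, 0.51 for H2-Aa, 0.42 for H2-DMa, 0.30 for Cd74, 0.21 for H2-Ab1, -0.37 for H2-DMb1 and -0.46 for Ciita, against 0.65 to 0.86 for the 7 genes among WT libraries. The WT values include replicate 2 of experiment 3, the highest library for all these genes, and were not computed without it. Whether r differs between the genotypes was not tested.

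The class II genes also went with each other. Leaving Ciita aside, the 15 pairs had r between 0.52 (H2-DMa with H2-DMb1) and 0.96 (H2-Ab1 with Cd74), and the residual r ran from 0.52 to 0.94. The 6 pairs with Ciita had r between 0.45 and 0.58, and a residual r from 0.14 with H2-Aa to 0.53 with H2-DMb1. All pairs share the same libraries and, through TPM, the same scaling, so these are descriptions.

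Each of Lyz2 and Ptprc was near or at 0 in a KO library that still held class II transcripts. KO replicate 2 of experiment 3 had the least Lyz2, 0.12 TPM, with Ptprc at 0.53 TPM. In that library Cd74 stood at 49.1 TPM, H2-Ab1 at 35.9 TPM, H2-Aa at 12.6 TPM and Ciita at 3.44 TPM. H2-Eb1 (3.66 TPM), H2-DMa (3.13 TPM, the lowest KO value) and H2-DMb1 (1.66 TPM) were at the low end there. KO replicate 2 of experiment 1, where Ptprc was listed at 0 and Lyz2 was 5.23 TPM, had 59.4 TPM of Cd74, 50.3 TPM of H2-Ab1 and 21.4 TPM of H2-DMb1. The 12 pan-leukocyte markers summed to 151 TPM in KO replicate 2 of experiment 3, near the KO median of 148.5 TPM. In KO replicate 2 of experiment 1 the sum was 144 TPM. Most of both sums was Lcp1, an actin-bundling protein, at 133 and 130.0 TPM. The residual r of Lcp1 with the class II genes (below) was 0.37. The next highest marker was Coro1a, at 7.44 and 12.5 TPM in the same order. Itgb2, Cd52, Tyrobp and Cd48 were listed at 0 in both libraries, so the sums say little about markers other than Lcp1. The lowest macrophage sum, 31.8 TPM, was that of KO replicate 1 of experiment 4, which also had the lowest H2-Aa (5.44 TPM) and H2-Eb1 (3.00 TPM) of all libraries and the lowest Cd74 among KO libraries (35.3 TPM). The lowest pan-leukocyte sum, 98.8 TPM, was that of KO replicate 3b of experiment 2, with Cd74 at 50.8 TPM and H2-Aa at 25.4 TPM. That sum also depends on Lcp1, at 44.1 TPM there, and does not mark the library with the least of the other markers. Ptprc stood at 16.8, Fcer1g at 17.8 and Laptm5 at 12.0 TPM, while Cd53, Coro1a, Cd52, Tyrobp and Cd48 were listed at 0.

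The opposite end was WT replicate 2 of experiment 3. Its Lyz2 was 1572 TPM and its Ptprc 109 TPM, with Cd74 at 2002, H2-Ab1 at 941, H2-Aa at 699 and H2-Eb1 at 600 TPM. Pecam1 was 856 TPM in the same library. Next came WT replicate 2 of experiment 4, with Lyz2 at 140 TPM, Cd74 at 453 TPM and Pecam1 at 95.0 TPM. The 3 libraries with Pecam1 under 500 TPM all had more Cd74 than the median of their genotype, at 205 TPM in the KO library, replicate 2 of experiment 4, against 453 TPM (replicate 2 of experiment 4) and 249.8 TPM (replicate 1 of experiment 2) in the WT libraries.

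The class II genes were lower in KO than in WT on average, which is among the results they were chosen on, so the differences are a description without a test. KO minus WT with experiment as block was -2.12 (SE 0.57) for H2-Eb1, -1.97 (SE 0.54) for H2-DMb1, -1.84 (SE 0.48) for H2-Aa and -1.47 (SE 0.47) for Cd74. It was -1.12 (SE 0.45) for H2-Ab1, -0.91 (SE 0.36) for Ciita and -0.79 (SE 0.45) for H2-DMa. The median of the 7 was -1.47 and that of all 13503 genes tested was -0.11. All 7 differences were below 0, as were 64% of all genes. Each of the 7 was below 0 in each of the 4 experiments, as were Ptprc and Lyz2. The share of all genes below 0 in every experiment was not counted, so nothing is read from this agreement. At an adjusted p under 0.05 limma called 0 of the 7 and 0.00741% of all genes (1 gene), and 5.88% of all genes were under an unadjusted p of 0.05; nothing is read from these counts about the 7. In experiment 3 the differences were widest for 6 of the 7, for example -3.83 for H2-Eb1 and -3.14 for Cd74. H2-DMb1 stood at -3.09 in experiments 2 and 3. Without WT replicate 2 of experiment 3 the differences over all experiments were -1.77 for H2-Eb1, -1.17 for Cd74, -0.79 for H2-Ab1 and -0.46 for H2-DMa. A test of whether the difference varied between experiments (limma interaction term) called 0 of 13503 genes, and the unadjusted p-values of the 7 ran from 0.199 to 0.656.

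Transcripts of leukocytes and of other non-endothelial cells were also lower on average in KO libraries. Lyz2 ran from 0.12 to 91.9 TPM in KO libraries (median 5.96) and from 6.55 to 1572 TPM in WT libraries (median 49.7). Ptprc ran from 0 to 28.7 TPM in KO libraries (median 6.21) and from 2.68 to 109 TPM in WT libraries (median 8.14). The 12 macrophage and monocyte markers, of which none was at 0 in every library of a genotype, summed to between 31.8 and 220 TPM in KO and between 59.6 and 5355 TPM in WT (at most 647 TPM without replicate 2 of experiment 3), and 12 of 12 had a KO minus WT difference below 0 (median -1.46, 0 called). The 12 pan-leukocyte markers summed to between 98.8 and 300.1 TPM in KO and between 113 and 3123 TPM in WT (at most 546 TPM without that library), with 11 of the 11 tested below 0 (median -1.35, 0 called). Fibroblast genes stood the same way, with 6 of the 6 tested below 0 (median -1.13, 0 called), as did Krt8 at -1.55 (SE 0.90), while 1 of 12 endothelial markers was below 0 (median 0.14, 0 called). B cell markers summed to at most 5.93 TPM in KO and 6.55 TPM in WT, and Ms4a1 (CD20) was listed at 0 in 10 of 10 KO and 8 of 11 WT libraries. Of the 8 dendritic cell markers 3 could be tested, with Itgax at -1.50 (SE 0.62), Batf3 at -0.17 (SE 0.47) and Zbtb46 at 0.33 (SE 0.33). Of the others, Xcr1 was listed at 0 in 10 of 10 KO and 8 of 11 WT libraries and Cd209a in 10 of 10 KO and 5 of 11 WT libraries. The part of these cell types in the class II differences was not tested, beyond the leukocyte fits that follow. In bulk RNA of a sorted population, fewer cells of a type and less RNA per cell cannot be told apart.

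With a leukocyte term in the fit the differences of all 7 lay nearer to 0. With the mean of the pan-leukocyte markers as covariate, KO minus WT was -1.02 (SE 0.50) for H2-DMb1, -0.77 (SE 0.35) for H2-Eb1, -0.72 (SE 0.33) for H2-Aa and -0.61 (SE 0.41) for Ciita. It was -0.30 (SE 0.27) for Cd74, -0.11 (SE 0.31) for H2-Ab1 and 0.22 (SE 0.32) for H2-DMa. The median of the 7 was then -0.61, with 6 of 7 below 0, beside -0.23 for all genes. The macrophage mean as covariate gave a median of -0.67 and Ptprc alone gave -0.77. H2-Ab1 and H2-Aa, the chains of one heterodimer, thus stood at -0.11 and -0.72 at equal pan-leukocyte level; whether the difference between them exceeds its error was not tested.

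**Figure D4:**
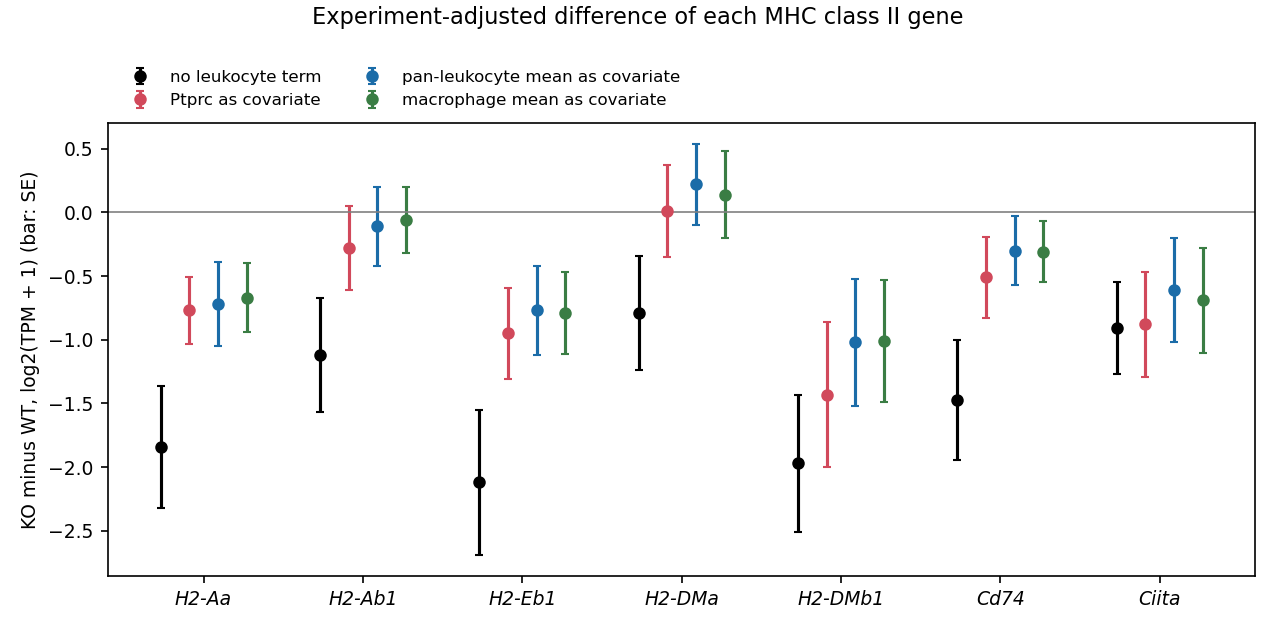
KO minus WT difference of each class II gene on the log2(TPM + 1) scale with its SE, with experiment as block (black) and with Ptprc, the pan-leukocyte mean or the macrophage mean added as covariate. The black points lie between -2.12 and -0.79, and with the pan-leukocyte mean the points lie between -1.02 and 0.22.

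Genes that act upstream of class II stood near 0. Of the 7 subunits of the promoter-bound complex (RFX, NF-Y and CREB), 2 were below 0, with a median KO minus WT of 0.03 and 0 called in either direction. Nfya stood at 0.03 (SE 0.25), Creb1 at 0.13 (SE 0.23), Nfyc at -0.10 (SE 0.27) and Nfyb at -0.24 (SE 0.28). Of the 6 tested genes of interferon-gamma signalling 2 were below 0, with a median of 0.09 and 0 called. Irf1, the transcription factor that induces Ciita, stood at 0.19 (SE 0.30), while Ifng itself was above 0 in 2 KO and 2 WT libraries and reached 0.67 TPM at most. Of 9 MHC class I genes 6 were below 0, with a median of -0.03 and 0 called, B2m at -0.26 (SE 0.30) and H2-K1 at -0.01 (SE 0.26).

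Lysosomal genes that prepare peptides and degrade the invariant chain stood nearer to the class II genes. All 8 were below 0, with a median KO minus WT of -0.69 and 0 called. Ctsb stood at -0.68 (SE 0.23), Lgmn at -0.60 (SE 0.26), Ctsd at -0.50 (SE 0.23) and Ctsl at -0.48 (SE 0.25). Chosen after their values were seen, Ctss, the cathepsin that trims the invariant chain in professional presenting cells, stood at -1.96 (SE 0.90) and Ifi30, the lysosomal thiol reductase GILT, at -1.54 (SE 0.72). March1, a ubiquitin ligase that removes class II from the surface of dendritic cells and B cells, stood at -1.07 (SE 0.45), beside -0.02 (SE 0.20) for March8 and -0.05 (SE 0.25) for Sppl2a, the protease that clears the invariant chain remnant. March1 was low, with a mean log2(TPM + 1) of 1.08, and met the filter mainly through WT libraries. Among KO libraries only replicate 3b of experiment 2 (1.43 TPM) and replicate 2 of experiment 4 (3.66 TPM) reached 1 TPM of March1. Among costimulatory genes, of which 3 of 6 could be tested, Cd40 stood at -0.42 (SE 0.41), Icosl at -1.02 (SE 0.34) and Cd274 (PD-L1) at -0.02 (SE 0.28).

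The transcriptome was then ranked by likeness to the class II genes, as the Pearson r over 21 libraries between each gene and the mean of the 7, after experiment and genotype were removed. The 12 most alike were Bcl2a1b (0.95), Lilrb4 (0.93), Itgax, Adgre1, Ms4a7, Nfam1 and Pilra (each 0.92), Cd52, Lyz2, Psd4 and Lgals3 (each 0.91) and Slamf9 (0.90). Bcl2a1b, Nfam1, Pilra, Psd4 and Slamf9 averaged under 1 TPM in KO libraries, against 4.13 (Psd4) to 12.35 TPM (Bcl2a1b) in WT libraries. The rest averaged 1.45 (Itgax) to 26.8 TPM (Lgals3) in KO libraries. How far r of the low genes rests on WT libraries was not tested. Itgax encodes the integrin CD11c of dendritic cells and macrophages and Adgre1 the macrophage surface protein F4/80. The other dendritic cell markers tested went the other way, with r = -0.27 for Batf3 and -0.68 for Zbtb46. Among the 7 themselves r with their own mean was 0.96 for Cd74, 0.94 for H2-Ab1 and 0.52 for Ciita, and Ciita ranked 547 of 13503 genes. Each of the 7 is part of that mean, which raises its r and rank above those of other genes. Values with the gene itself left out were not computed. Lyz2 ranked 12 and Ptprc 88, while Pecam1 ranked 12399 with r = -0.59. Without WT replicate 2 of experiment 3 the 12 genes had r between 0.83 and 0.92 and Ciita 0.36.

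By list, the median r with the class II genes was 0.83 for macrophage markers, 0.79 for pan-leukocyte markers and 0.55 for lysosomal genes, beside -0.17 for all genes. It was -0.26 for class I genes, -0.32 for the promoter-bound complex, -0.47 for interferon-gamma signalling and -0.55 for endothelial markers, the 12 of which lay between -0.69 and -0.47. Fibroblast genes had a median of 0.51, and Krt8, the 1 epithelial keratin that could be tested, had 0.83. Transcripts of some other non-endothelial cells thus also went with the class II genes. Others did not: the fibroblast gene Fap had -0.28 and Lck, the 1 T and NK cell marker tested, -0.74. The 3 dendritic cell markers tested had a median of -0.27. Without WT replicate 2 of experiment 3 the medians were 0.77 for macrophage, 0.69 for pan-leukocyte, 0.32 for lysosomal, 0.29 for fibroblast and -0.58 for endothelial genes. These correlations share libraries and TPM scaling, in which more of one cell type's RNA lowers the values of all others.

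**Figure D5:**
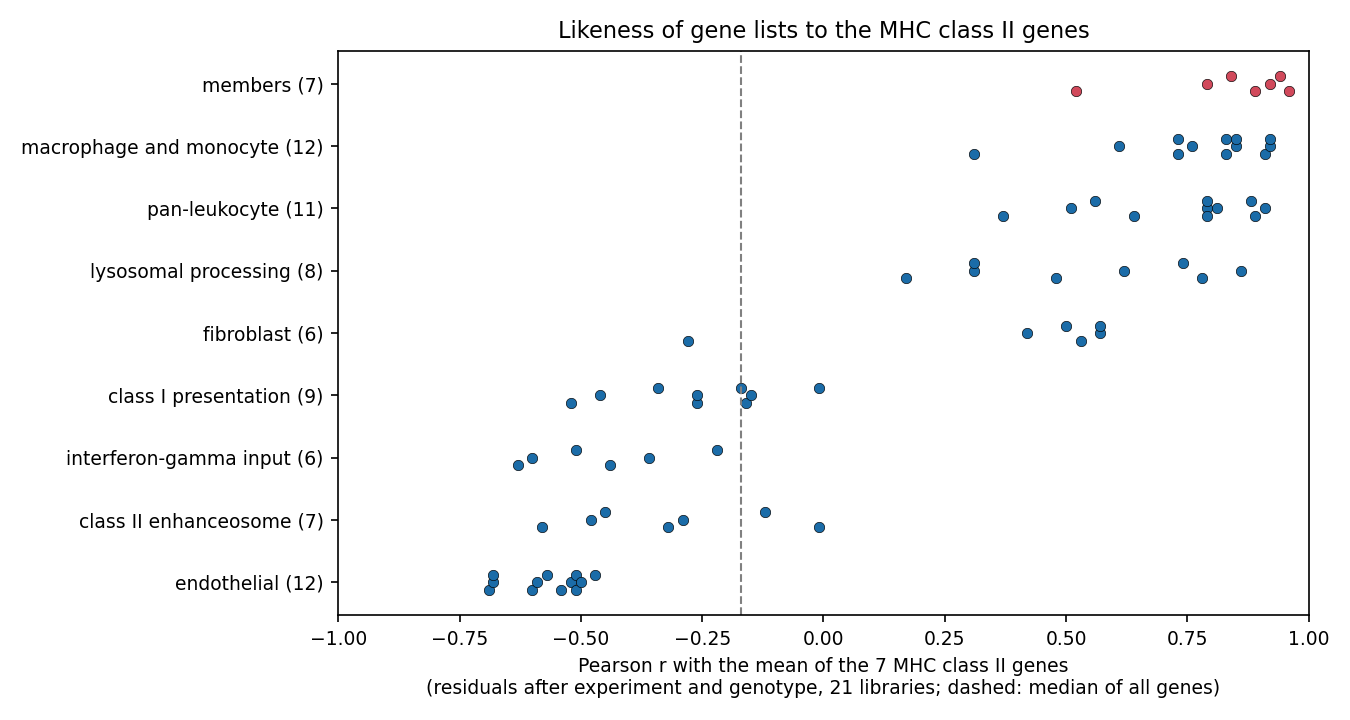
Pearson r of each gene with the mean of the 7 class II genes after experiment and genotype were removed (x axis), by list (number of genes tested in brackets); the dashed line is the median of all genes, -0.17. Macrophage and pan-leukocyte genes lie at the right with the class II genes, endothelial genes at the left, and the lone red point at 0.52 is Ciita. Each class II gene is part of the mean, which raises its own r.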

How the data were processed

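The deposited table gives TPM for 45706 genes and 21 libraries, calculated by the authors on the linear scale and written with decimal commas. The submitters' processing notes name GRCm38; the aligner and counter were not given in the sources used here. Libraries were made from 30 ng total RNA with a stranded kit and ribosomal depletion and sequenced as paired reads of 150 bases, according to the protocols in the labels. Libraries were grouped by column header. The header Experiment2_ko3 occurs on a pair of columns, both taken as KO of experiment 2, and the KO replicate 3 of experiment 4 named in the labels has no column under its own name. Whether column 3b is that sample is not settled. Of the gene names, 27 in the form of dates were restored from their identifiers.

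Genes that reached 1 TPM in 10 or more libraries (13503, all 7 members included) entered limma 3.58.1 (statmod 1.5.0, R 4.3.3) on log2(TPM + 1), with a trended, robust prior, genotype and experiment as terms, and Benjamini-Hochberg adjustment with a threshold of 0.05. The pseudocount understates changes of low genes. The fit was tested on simulated data. Correlations used 100000 permutations over all libraries, and residual ones permuted within experiment and genotype. Neither accounts for libraries that share a tumour. Named genes are the 7 members, Ptprc, Lyz2, Pecam1, the 12 genes most like the members without predicted models, and up to 4 genes with the highest mean per pathway list; any other gene was chosen with its values in view. The members and lists were chosen with earlier results of these data known. Alternatives were other pseudocounts, filters and scalings, the replicate block, placements of the doubled column, low-Pecam1 libraries left out and each library left out. Libraries of one experiment and genotype correlated at 0.743 to 0.947, so none looked like a copy.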

Additional observations from a re-analysis of the deposited data

How the results depend on the processing

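All 7 class II genes stayed below 0 (KO minus WT) under 30 alternatives without a leukocyte term, and the median with the pan-leukocyte term lay between -0.86 and -0.37. Over all genes, the 1 call of KO against WT became 0 with at least 1 TPM in every library (5 of the 7 class II genes left), 2 with a common median and 2 with quantile normalization. Replicate numbers did not pair libraries (2 of 10 pairs correlated over 0.1); a replicate block gave 0 calls. Genes called between experiments numbered 3931, against 2496 with a common median, 1846 without libraries under 500 TPM Pecam1, and 2335 to 5012 with a library left out. The class II genes called between experiments numbered 0, and 0 to 1 with a library left out (1 without WT replicate 3 of experiment 1 or KO replicate 1 of experiment 2). Of the 14 relations 11 to 13 passed under every alternative. The r of Ciita with Ptprc ran from -0.02 (without WT replicate 2 of experiment 3) to 0.37 with a library left out and was 0.46, past the threshold, with quantile normalization. That of Ciita with Lyz2 lost the threshold under 6 alternatives, at 0.29 to 0.46. The causes were not tested. Filters leave the correlations as they are.

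Depth is unknown, so a value listed at 0 has no limit attached. Up to 4 libraries form a genotype within an experiment, the labels do not say which libraries share a tumour, and experiments differ in ways that cannot be told apart.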
